A study of Ctenopharyngodon idella with 6 samples.

Results

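The miR-10 and miR-196 families were described in plasma exosomes of grass carp (Ctenopharyngodon idella), in the large fish group (L1 to L3) against the small fish group (S1 to S3). Members were all known miRNA entries, of any species, whose family number was exactly miR-10 or miR-196. They came to 101 of the 2925 known entries, 74 of miR-10 and 27 of miR-196, and held 62 distinct sets of values (43 of miR-10 and 19 of miR-196). The species prefix is that of the miRBase entry that the reads were matched to, so a zebrafish (dre), carp (ccr), human (hsa) or opossum (mdo) entry was measured here in grass carp. Of the 101 entries, 65 were assigned to the 5p arm and 36 to the 3p arm of the precursor hairpin, 31 of them by the closest sequence because the name gives no arm.

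Both groups were fish from the same high-density pond, described as 10 months old in the labels and as sampled after 9 months of culture in the methods, and they differed in body size. Each of the 3 large fish libraries held the pooled plasma of 2 fish, and each of the 3 small fish libraries that of 5 fish. Exosomes were isolated by ultracentrifugation, so each value is a mean over a pool of animals and over vesicles of every cell type that sheds them into blood. Values are counts per 1000000 miRNA counts of a library (CPM), counted with unique molecular identifiers, and library totals ranged from 5272418 to 7660938 counts in large fish and from 6684107 to 11524535 counts in small fish. Where no count was found, the level could still be as high as 0.569 CPM in L1, the shallowest library, or 0.260 CPM in S2, the deepest (3 counts of the total, for counting error only).

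The genes of both families lie inside the HOX clusters of vertebrates, which set position along the body axis. In zebrafish, mouse and human, mir-10 genes sit next to the Hox4 paralogues and mir-196 genes between the Hox9 and Hox10 paralogues, and each family is expressed in the trunk and tail regions that its neighbouring HOX genes mark. A miRNA binds messenger RNAs mainly through its seed, bases 2 to 8 of the mature strand. HOX transcripts are among the known targets, such as hoxb1a and hoxb3a for miR-10 in zebrafish and Hoxb8 for miR-196 in mouse. miR-99 and miR-100 are relatives of miR-10 in sequence that lie outside the HOX clusters.

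The 5p sequences below show how close the letters of each family are, with the seed in capitals and T for U as the deposited table writes them.
dre-miR-10a-5p: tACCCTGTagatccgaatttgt
gga-miR-10b-5p: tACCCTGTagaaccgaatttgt
dre-miR-10c-5p: tACCCTGTagatccggatttgt
dre-miR-10d-5p: tACCCTGTagaaccgaatgtgtg
cpo-miR-10a-5p: tACCCTGTaggtccgaatttgt
cte-miR-10a: tACCCTGTagttccggatttgt
hsa-miR-196a-5p: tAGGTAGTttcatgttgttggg
dre-miR-196b: tAGGTAGTttcaagttgttggg
dre-miR-196c: tAGGTAGTttgatgttgttggg
dre-miR-196d: tAGGTAGTtttatgttgttggg
hsa-miR-196b-5p: tAGGTAGTttcctgttgttggg
hsa-miR-100-5p: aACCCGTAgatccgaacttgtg

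Positions are counted from 1 at the 5′ end of dre-miR-10a-5p for miR-10 and of hsa-miR-196a-5p for miR-196. Against miR-10a, the miR-10b entry differed by T12A, the miR-10c entry by A16G and the miR-10d entry by T12A and T19G. Against miR-196a, the zebrafish entries of miR-196b, miR-196c and miR-196d differed by T13A, C11G and C11T, and the human miR-196b entry by A12C. All of these differences lie outside the seed. Of 43 miR-10 5p entries, 33 had the seed ACCCTGT, and 6 had CCCTGTA because the entry starts a base later. All 22 miR-196 5p entries had the seed AGGTAGT. The seed of hsa-miR-100-5p, ACCCGTA, is close to that of miR-10 but not the same.

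The 3p strands are shown because their fitted changes spanned the widest range.
dre-miR-10a-3p: cAAATTCGtgtcttggggaata
hsa-miR-10a-3p: cAAATTCGtatctaggggaata
dre-miR-10b-3p: aCAGATTCgattctaggggagt
ssa-miR-196a-4-3p: tCGGCAACaagaaactgccttga
ssa-miR-196b-3p: cAGGAACCtgaaactacctgaa
Against dre-miR-10a-3p, the human miR-10a-3p entry differed by G10A and T14A and had the same seed, AAATTCG. The seeds of 3p entries varied more than those of 5p entries, with 9 different seeds among the 31 miR-10 3p entries.

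Entries often carried the same counts, which limits what a letter means here. No mature sequence was repeated among the 2925 entries, yet 61 of the 101 members shared their counts with at least 1 other member in all 6 libraries. One such set was dre-miR-196d, hhi-miR-196, ipu-miR-196d and xtr-miR-196b, with 118, 133 and 259 counts in L1, L2 and L3, against 525, 940 and 810 counts in S1, S2 and S3. In this set hhi-miR-196 differs from hsa-miR-196a-5p by T9C and dre-miR-196d by C11T, so entries with different bases took equal counts. The zebrafish dre-miR-196c entry differed from dre-miR-196d by at most 2 counts in any library. The 61 members fell into 22 sets, and the main counts of calls are therefore given over names and over distinct sets of values. Distinct sets can still be near copies, so they are not independent either. For example, mdo-miR-10b-5p and gga-miR-10b-5p had equal counts in every large fish library. In S1, S2 and S3 they had 2103, 4351 and 3623 against 2102, 4349 and 3622 counts.

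The genome positions of the miRNA genes were not determined, because the annotation of the HZGC01 build used here lists 0 miRNA genes. It does list 47 hox genes on 7 chromosomes. On chromosome 3, 11 hox genes from hoxb1a to hoxb13a span positions 22029682 to 22147392, and the interval between hoxb4a and hoxb5a runs from 22084327 to 22092782 and that between hoxb9a and hoxb10a from 22126813 to 22129623. These are the intervals of the kind that hold mir-10 and mir-196 genes in zebrafish, and hoxb8a lies at 22112303 to 22116640 between them. The annotated model of hoxb3a, from 22054050 to 22105094, runs across the first of these intervals.

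Both families were lower in the plasma exosomes of large fish, mostly in their 5p strands. A member was tested where 3 or more libraries held 1 CPM or more, and of the 81 such members 53 passed as lower (33 of 49 distinct sets) and 0 as higher. Log2(CPM + 1) of the large fish libraries was compared with that of the small fish libraries by limma, and an entry passed at a Benjamini-Hochberg adjusted p of at most 0.05 over all 1807 entries tested and a fold of at least 1.5. Over all entries tested, 14.2% passed as lower and 2.82% as higher. Of the tested miR-10 entries 31 of 58 passed (19 of 34 distinct sets), and of the miR-196 entries 22 of 23 (14 of 15 distinct sets), beside 14.8% of the distinct sets in the whole table. The median log2 fold change was -1.25 for miR-10 entries and -1.79 for miR-196 entries, beside -0.26 over all entries tested.

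By arm, 30 of 35 miR-10 5p entries and 21 of 21 miR-196 5p entries passed as lower, against 1 of 23 miR-10 3p entries and 1 of 2 miR-196 3p entries. Over distinct sets these were 18 of 23 and 13 of 13 for 5p, against 1 of 11 and 1 of 2 for 3p. Of the 25 tested 3p entries (13 distinct sets), 24 had a fitted change below 0, with a median log2 fold change of -0.62. Over all entries tested, 1229 of 1807 had a fitted change below 0, with a median of -0.26. The 22 miR-10 3p entries that did not pass reached at most 15.5 CPM in any library. The part of this low level in the difference between arms was not tested. Of the 81 names, 56 had all 3 large fish libraries below all 3 small fish libraries, and 0 had them all above. Over all entries tested, the groups did not overlap in that direction in 29.6% and in either direction in 40.1%. The other 20 members stayed below the filter, at no more than 2.09 CPM in any library, and 10 of them were at 0 in every large fish library. Of the 81 entries, 1 was tested only because of its level in small fish, and 9 had at least 1 large fish library under 1 CPM.

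**Figure D1:**
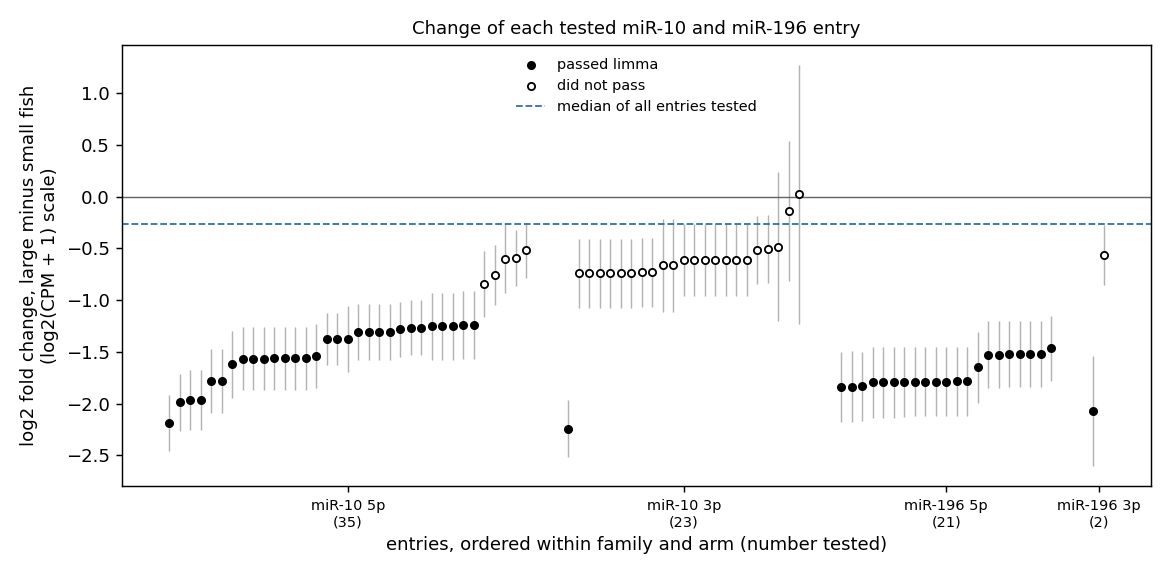
Log2 fold change (large minus small fish, log2(CPM + 1) scale, bars are standard errors of limma) of the 81 tested entries, ordered within family and arm. Filled points passed the test. The 5p entries of both families all lie below the dashed median of all entries tested, at -0.26. All but 1 of the miR-10 3p entries are open, though most of them also lie below that median.

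dre-miR-10a-5p, from the 5p side of the hairpin, was the most abundant member. It had 242, 147 and 209 CPM in L1, L2 and L3, against 386, 492 and 595 CPM in S1, S2 and S3. The groups did not overlap, and L2 was the lowest library and S3 the highest. The mean was 199 ± 48.4 CPM in large fish, against 491 ± 105 CPM in small fish (SD, n = 3 each), and limma gave a log2 fold change of -1.30 ± 0.27 (SE, adjusted p = 0.0218). It rested on 1125 to 1364 counts in large fish libraries and 2579 to 5673 counts in small fish libraries, and its family ranked 42 of 152 by the level of the most abundant entry.

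In human, the miR-10b gene lies in the HOXD cluster. Its most abundant entry, mdo-miR-10b-5p, carries the sequence of gga-miR-10b-5p with 1 more base at the 5′ end. It had 163, 87.8 and 154 CPM in large fish, against 315, 378 and 487 CPM in small fish, with no overlap (log2 fold change -1.56 ± 0.31, SE, limma, adjusted p = 0.0202). The entry oha-miR-10c-5p, the most abundant of those named 10c, holds the miR-10b sequence followed by 3 more bases and took nearly the same counts.

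dre-miR-10c-5p and ccr-miR-10c, with the A16G form, had equal counts. They had 117, 86.0 and 94.2 CPM in large fish, against 200, 262 and 320 CPM in small fish (log2 fold change -1.37 ± 0.25, SE, limma, adjusted p = 0.0202). dre-miR-10d-5p had 127, 61.6 and 117 CPM in large fish, against 189, 240 and 279 CPM in small fish (log2 fold change -1.25 ± 0.33, SE, limma, adjusted p = 0.0400). Its call ended without a filter, with TMM or quantile scaling, with edgeR's quasi-likelihood test and when any 1 library other than L3 was left out (adjusted p 0.0681 to 0.138 over these). In dre-miR-10c-5p and dre-miR-10d-5p, the highest large fish library lay below the lowest small fish library. ssa-miR-10d-5p, named 10d but without the T19G difference, was also lower (log2 fold change -1.37, adjusted p = 0.0308 by limma, but 0.0529 without a filter and 0.0592 with TMM scaling), and so was the entry with no letter, dme-miR-10-5p (-1.27, adjusted p = 0.0218 by limma).

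**Figure D2:**
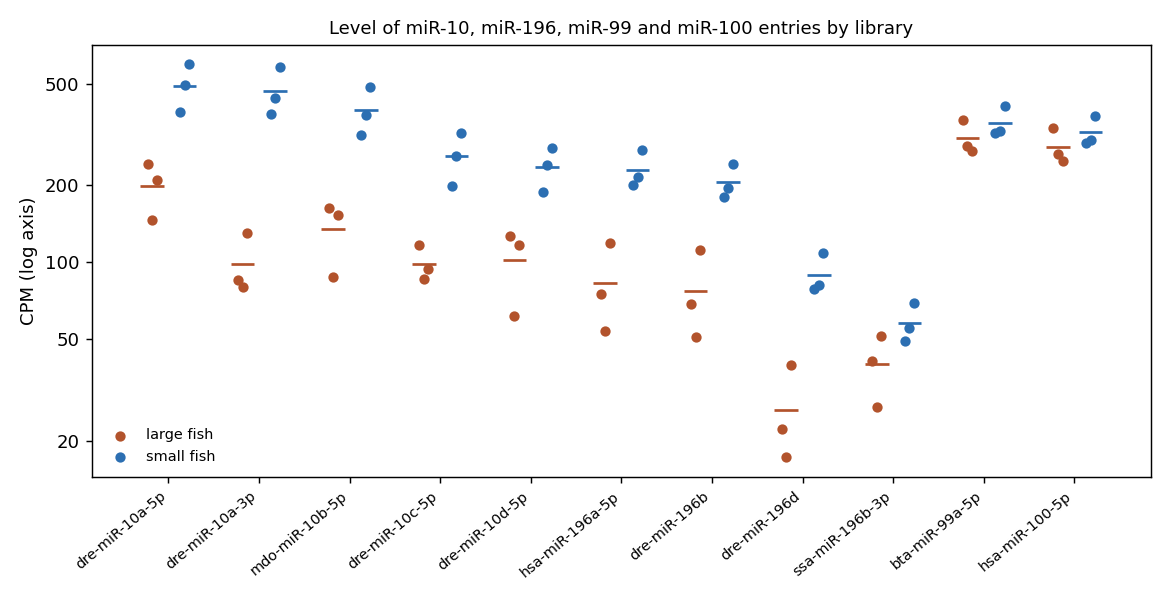
Level in CPM (log axis) of 9 members and of the most abundant miR-99 and miR-100 entries, with large fish left of small fish, 1 point per library and a bar at the mean of 3 libraries. The large fish points lie below the small fish points in the first 8 members and overlap with them in ssa-miR-196b-3p, miR-99a and miR-100.

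The miR-196 family is known in mouse for cutting the Hoxb8 transcript, and its 5p entries stood at different levels. hsa-miR-196a-5p had 75.1, 54.2 and 119.5 CPM in large fish, against 200, 216 and 276 CPM in small fish. dre-miR-196b had 68.7, 50.9 and 112 CPM in large fish, against 180, 195 and 242 CPM in small fish. dre-miR-196d had 22.4, 17.4 and 39.7 CPM in large fish, against 78.5, 81.6 and 109 CPM in small fish. In all of these L2 was the lowest library, L3 the highest of the large fish, and no large fish library reached the lowest small fish library. The log2 fold changes were -1.53 ± 0.32 for hsa-miR-196a-5p, -1.47 ± 0.32 for dre-miR-196b and -1.79 ± 0.34 for dre-miR-196d (SE), with adjusted p of 0.0219, 0.0253 and 0.0202 by limma. The 21 miR-196 5p entries lay between -1.84 and -1.47, a narrower range than the 30 miR-10 5p entries that passed, at -2.19 to -1.24.

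The lowest fitted log2 fold change with a pseudocount of 1 was that of dre-miR-10a-3p, the strand opposite miR-10a-5p in the hairpin (with a pseudocount of 0.1 it was -2.26, where ssa-miR-196a-4-3p was -3.32). It had 85.5, 80.4 and 130 CPM in large fish, against 380, 441 and 583 CPM in small fish. All large fish libraries lay under all small fish libraries by a wide margin, and the mean was 98.7 ± 27.3 CPM in large fish, against 468 ± 104 CPM in small fish (SD, n = 3 each). The log2 fold change was -2.24 ± 0.27 (SE, limma, adjusted p = 0.0138). The other 22 miR-10 3p entries tested were rare, at no more than 15.5 CPM in any library, and did not pass.

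Among these, hsa-miR-10a-3p and 5 further names shared 5.12, 4.57 and 7.83 CPM in large fish, against 6.58, 12.3 and 12.9 CPM in small fish, and aca-miR-10c-3p and cpi-miR-10c-3p are the names among them given as 10c (log2 fold change -0.74, adjusted p = 0.174 by limma). dre-miR-10b-3p had 4.36, 3.26 and 8.90 CPM in large fish, against 8.38, 7.72 and 8.87 CPM in small fish (-0.61, adjusted p = 0.268 by limma). Both overlapped between the groups, since L3 reached the small fish values. dre-miR-10d-3p, the single entry with a fitted change above 0 (0.025, adjusted p = 0.992 by limma), had 5.88, 0 and 13.7 CPM in large fish, against 4.79, 15.5 and 0 CPM in small fish. Its libraries at 0 allow up to 0.392 CPM in L2 and 0.403 CPM in S3. dre-miR-10b-2-3p had 3.79, 5.35 and 0 CPM in large fish, against 5.83, 3.64 and 1.61 CPM in small fish, with overlap.

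In miR-196, 3p strands were seen for 2 tested entries, both named from salmon (ssa). ssa-miR-196a-4-3p had 3.22, 0 and 2.15 CPM in large fish, against 10.6, 9.20 and 7.39 CPM in small fish, and passed (log2 fold change -2.07 ± 0.53, SE, limma, adjusted p = 0.0391). The call ended with a pseudocount of 0.1, without a filter, with TMM or quantile scaling, with edgeR or DESeq2, and when any 1 of the 6 libraries was left out (adjusted p 0.0556 to 0.182 over these). It rested on 17, 0 and 14 counts in large fish, against 71, 106 and 55 counts in small fish. ssa-miR-196b-3p, the more abundant of the pair, had 41.2, 27.2 and 51.4 CPM in large fish, against 49.2, 55.4 and 69.6 CPM in small fish. Only L3 reached into the small fish range, and the entry did not pass (-0.56 ± 0.29, SE, limma, adjusted p = 0.225).

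The 3p to 5p ratio asked whether the 3p and 5p entries of a family and letter moved together. Each ratio set the most abundant 3p entry over the most abundant 5p entry, from any species, so the 2 need not share a hairpin. For miR-10a (dre-miR-10a-3p over dre-miR-10a-5p), the 3p strand came to 35.3%, 54.8% and 62.2% of the 5p strand in large fish, against 98.4%, 89.6% and 97.9% in small fish. For miR-196b (ssa-miR-196b-3p over dre-miR-196b) it came to 59.9%, 53.3% and 46.0% in large fish, against 27.3%, 28.4% and 28.8% in small fish. The libraries did not overlap in either, and the direction was opposite, lower in large fish for miR-10a and higher for miR-196b. The log2 difference of the ratio was -0.94 ± 0.29 for miR-10a and 0.90 ± 0.29 for miR-196b (SE). Over 125 combinations of family and letter, limma gave raw p of 0.00894 and 0.0112 and an adjusted p of 0.168 in both, so neither passed. Of the 125 combinations 0% passed, and the 2 differences ranked 16 and 17 by size. The difference between the miR-10a and miR-196b ratios was not itself tested. Over the libraries, dre-miR-196b stood at 87.5% to 94.0% of hsa-miR-196a-5p. Whether the miR-196b ratio is that of a miR-196b hairpin was not determined.

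The ratios of the rarer 3p strands were small. For miR-10b (dre-miR-10b-3p over mdo-miR-10b-5p) the 3p strand was 2.68% to 5.79% of the 5p strand in large fish, against 1.82% to 2.66% in small fish. Over the names given as 10c (aca-miR-10c-3p over oha-miR-10c-5p) it was 3.15% to 5.20% in large fish, against 2.09% to 3.27% in small fish. The first of these holds the same counts as hsa-miR-10a-3p and the second the miR-10b sequence, so this is a ratio of names and not of a miR-10c hairpin. The log2 differences were 0.95 and 0.82, with adjusted p of 0.304 and 0.319 by limma. With a pseudocount of 10 CPM, which is above most of these 3p values, both passed. For miR-10d (dre-miR-10d-3p over ssa-miR-10d-5p) and miR-196a (ssa-miR-196a-4-3p over hsa-miR-196a-5p) the ratio rested on libraries at 0 and did not pass (1.40 and -0.55, adjusted p = 0.541 and 0.586 by limma).

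**Figure D3:**
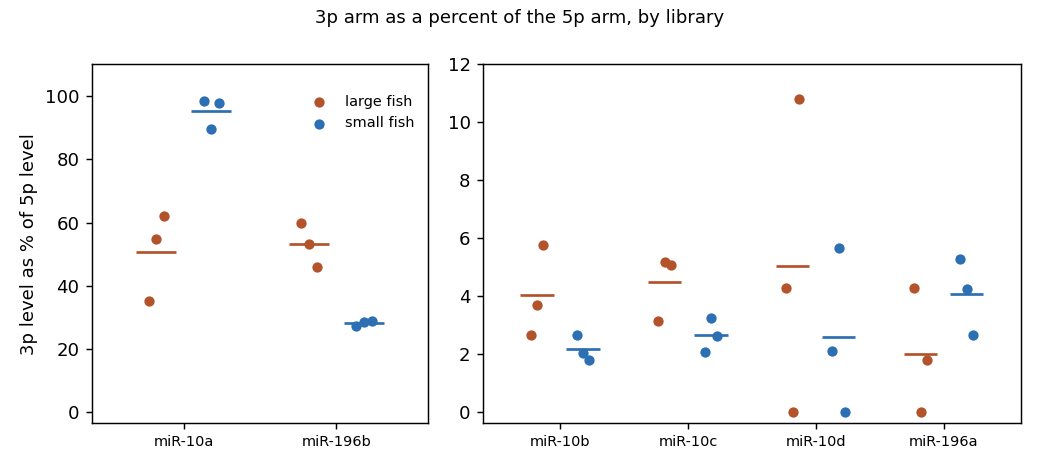
Level of the 3p strand as a percent of the 5p strand in each library (points, bar at the mean of 3), with large fish left of small fish. miR-10a lies at 35.3% to 62.2% in large fish, against 89.6% to 98.4% in small fish, miR-196b at 46.0% to 59.9% in large fish, against 27.3% to 28.8% in small fish, and the right panel has its own axis. The miR-10c points are the ratio of entries named 10c, not of a miR-10c hairpin. Whether the miR-196b points are those of a miR-196b hairpin was not determined.

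Within each library, 10 pairs of entries were compared by a 2-sided exact permutation test, which with 3 against 3 libraries cannot go below p = 0.1, so that no pair could pass. In the limma fit of single entries, the relatives outside the HOX clusters did not pass. In the 5p strand, bta-miR-99a-5p had 362, 284 and 272 CPM in large fish, against 321, 328 and 407 CPM in small fish, and hsa-miR-100-5p had 335, 265 and 249 CPM in large fish, against 294, 302 and 375 CPM in small fish. These 5p entries overlapped between the groups (log2 fold changes -0.21 and -0.20, adjusted p = 0.555 and 0.575 by limma, and above 0 with TMM scaling, at 0.045 and 0.053). Of 19 miR-99 and 29 miR-100 entries tested 0 passed by limma, but 4 miR-100 3p entries (hsa, oha, dre and gga) did not overlap. hsa-miR-100-3p had 3.03, 1.57 and 9.21 CPM in large fish, against 11.7, 12.8 and 14.5 CPM in small fish (log2 fold change -1.56, adjusted p = 0.0733 by limma). Relative to miR-99a in the same library, miR-10a-5p stood at 66.9%, 51.7% and 77.0% in large fish, against 120%, 150% and 146% in small fish. Its log2 difference was -1.10 against miR-99a and -1.11 against miR-100, and that of dre-miR-10a-3p against miR-10a-5p was -0.94 (exact permutation p = 0.1 in each, adjusted over the pairs p = 0.143).

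Within the families, miR-10b stood at 67.2%, 59.8% and 73.5% of miR-10a in large fish, against 81.5%, 76.7% and 81.8% in small fish, with no overlap (log2 difference -0.26, exact permutation p = 0.1, adjusted p = 0.143). dre-miR-196c and dre-miR-196d stood lower against miR-196a in large fish in the same way (-0.26 in both), and dre-miR-196b stood higher (0.060), each with exact permutation p = 0.1 and adjusted p = 0.143. dre-miR-10c-5p and dre-miR-10d-5p overlapped between the groups when set against miR-10a, with log2 differences of -0.069 and 0.050 (exact permutation p = 0.6 and 0.8). The order miR-196a to miR-10a did not separate the groups either, at 31.0%, 36.9% and 57.1% in large fish, against 51.9%, 44.0% and 46.3% in small fish (exact permutation p = 0.5).

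The fitted fall of 5p entries differed in size within a family. These entries were chosen after their values were seen, and their shares are given without a test. cpo-miR-10a-5p, with A11G, had 36.2, 26.6 and 36.8 CPM in large fish, against 126, 138 and 209 CPM in small fish (log2 fold change -2.19 by limma). It stood at 15.0%, 18.1% and 17.6% of dre-miR-10a-5p in large fish, against 32.7%, 28.0% and 35.0% in small fish. spu-miR-10, with T1A, stood at 27.6%, 27.9% and 31.1% in large fish, against 47.5%, 42.3% and 48.7% in small fish. Both shares were lower in every large fish library than in any small fish library.

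The opposite was seen for cte-miR-10a, with A11T and A16G, which had 55.8, 47.4 and 43.4 CPM in large fish, against 50.7, 86.7 and 77.9 CPM in small fish. Its level overlapped between the groups (log2 fold change -0.52, adjusted p = 0.220 by limma), and its share of dre-miR-10a-5p was 23.0%, 32.3% and 20.7% in large fish, against 13.1%, 17.6% and 13.1% in small fish. bfl-miR-10c, with A16G and T18C, gave the same picture (-0.59, adjusted p = 0.177 by limma).

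Counting does not follow the printed mature sequence alone. oni-miR-10d is the dps-miR-10 sequence with 1 base added at its 3′ end, and it had 41.3, 21.8 and 39.1 CPM in large fish, against 94.9, 112 and 143 CPM in small fish, where dps-miR-10 had 186, 122 and 167 CPM in large fish, against 298, 379 and 473 CPM in small fish. The methods state that reads were mapped to precursor sequences, and how reads that fit several were divided is not given in the sources used here. The part of this counting in the unequal falls was not tested.

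**Figure D4:**
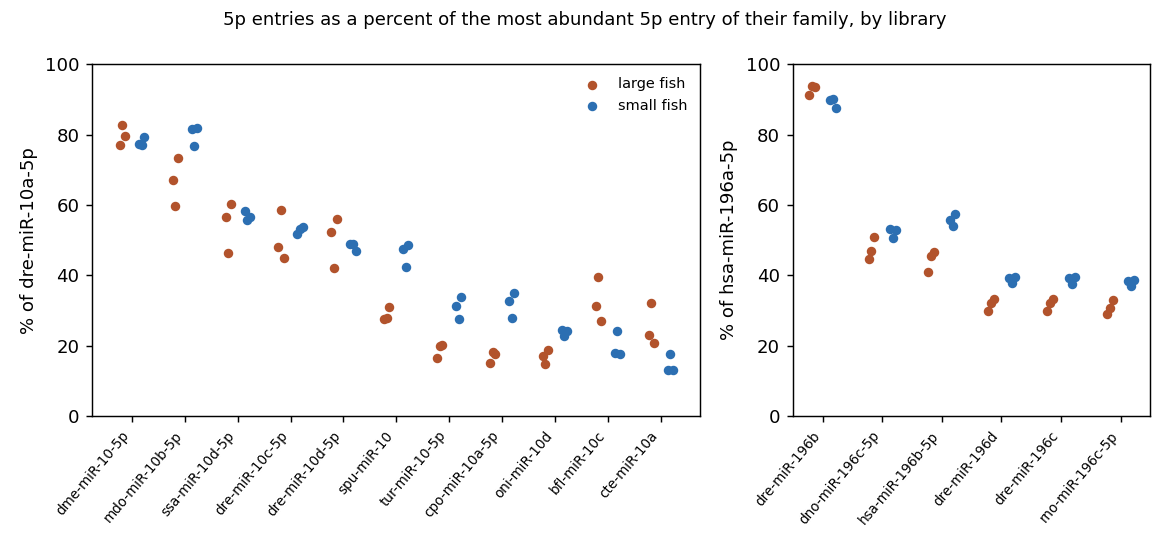
Level of 5p entries as a percent of dre-miR-10a-5p (left) and of hsa-miR-196a-5p (right) in each library, with large fish left of small fish. The share of cpo-miR-10a-5p is 15.0% to 18.1% in large fish, against 28.0% to 35.0% in small fish, and that of cte-miR-10a is 20.7% to 32.3% in large fish, against 13.1% to 17.6% in small fish.

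Other miRNAs of the HOX clusters added little. miR-615, iab-4 and iab-8 had 0 entries in the table, and the 13 miR-993 entries, an insect relative of miR-10, reached at most 1.21 CPM in any library. Among entries of other names, 10 had the seed ACCCTGT, at no more than 2.02 CPM, and 1 had the seed AGGTAGT, at no more than 0.150 CPM, and 0 of these 11 were tested. Every entry of another name with either seed thus stayed below the filter.

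Over the 6 libraries, the families whose most abundant entry followed dre-miR-10a-5p most closely were miR-130 (Pearson r of log2(CPM + 1) 0.978), miR-365 (0.954), miR-211 (0.953), miR-217 (0.953) and miR-204 (0.943). For hsa-miR-196a-5p they were miR-722 (0.982), miR-1 (0.982), miR-206 (0.980), miR-199 (0.980) and miR-365 (0.977), and miR-10a and miR-196a had r = 0.944 with each other. All points share the 6 libraries and the group difference, so these are descriptions and carry no test.

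Of the lists of miRNAs known from cell types, some were lower in large fish, as both families were, and others were not. The 6 skeletal and cardiac muscle families summed to 2387 to 6679 CPM in large fish, against 10645 to 17570 CPM in small fish, with 4 of 6 lower by limma and miR-208 at 0. Most of that sum was miR-206, at 2031 to 5260 CPM in large fish, against 8390.5 to 13387 CPM in small fish. miR-499 did not pass (adjusted p = 0.666 by limma), and L3, at 51.4 CPM, lay above every small fish library (at most 34.9 CPM). The 4 smooth muscle and mesenchyme families summed to 4057 to 8534 CPM in large fish, against 11916 to 13463 CPM in small fish, with 3 of 4 lower. L3 had the highest sum of the large fish libraries in both lists. It also had the highest large fish values of miR-196a, miR-196b, miR-196d and dre-miR-10a-3p. L1 instead had the highest large fish values of dre-miR-10a-5p, mdo-miR-10b-5p, dre-miR-10c-5p and dre-miR-10d-5p. The 6 leukocyte families summed to 17422 to 38957 CPM in large fish, against 8189 to 9564 CPM in small fish, with 3 of 6 higher by limma. Among them miR-146 had 7721 to 26878 CPM in large fish, against 4670 to 4791 CPM in small fish. It did not pass (adjusted p = 0.0949 by limma). Neither did miR-155, with a higher mean in large fish (242 against 155 CPM), or miR-181, with a lower mean (120 against 172 CPM). Epithelium and skin families summed to 404 to 624 CPM in large fish, against 749 to 5029 CPM in small fish, with 1 of 5 lower. In S2, miR-203 (93.5 CPM) and miR-205 (49.8 CPM) lay below every large fish library. In miR-141, miR-200 and miR-429 the groups did not overlap.

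The erythroid (3118 to 3275 CPM in large fish, 1411 to 3344 CPM in small fish), endothelium and thrombocyte (7784 to 14982 CPM in large fish, 9400 to 14061 CPM in small fish) and liver lists (115 to 310 CPM in large fish, 207 to 358 CPM in small fish) overlapped between the groups. The neuron list summed to 577 to 606 CPM in large fish, against 456 to 559 CPM in small fish. Most of that sum was miR-128, at 568 to 587 CPM in large fish, against 406 to 526 CPM in small fish. The means of miR-9 (2.45 CPM in large fish, 14.4 CPM in small fish), miR-124 (0 and 5.28 CPM, not tested) and miR-137 (10.1 and 17.5 CPM) were lower in large fish. In S1, S2 and S3, miR-9 had 4.19, 34.2 and 4.70 CPM and miR-124 had 13.2, 0.521 and 2.15 CPM. miR-137 overlapped between the groups, at 1.90 to 21.3 CPM in large fish, against 15.0 to 21.9 CPM in small fish. In all of these lists 0 families passed by limma, and each family reached at least 1 CPM. The part of any cell type in the levels of miR-10 and miR-196 was not tested, and in pooled plasma fewer vesicles from a tissue and less of a miRNA per vesicle cannot be told apart.

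The calls depended on the libraries. Without L1 or without L2, 0 miR-10 and 0 miR-196 entries passed by limma. In both cases 33 of 58 and 22 of 23 were at an unadjusted p under 0.05 by limma. Over all entries tested, 492 of 1783 were so without L1 and 542 of 1779 without L2. Without S3, 2 miR-10 and 0 miR-196 entries passed. Over all entries tested, 3 passed as lower and 5 as higher of 1783 without L1. These were 0 and 0 of 1779 without L2, and 10 and 12 of 1739 without S3. The median log2 fold changes of miR-10 and miR-196 entries were -1.41 and -1.71 without L1, -0.96 and -1.54 without L2, and -1.10 and -1.64 without S3. After quantile normalization 7 miR-10 and 19 miR-196 entries passed. Of the 16 named entries called in the main fit, 10 lost the call, with adjusted p of 0.0542 to 0.138 by limma. They were dre-miR-10a-5p, mdo-miR-10b-5p, oha-miR-10c-5p, dre-miR-10c-5p, ccr-miR-10c, dre-miR-10d-5p, ssa-miR-10d-5p, dme-miR-10-5p, dre-miR-196b and ssa-miR-196a-4-3p. The median log2 fold change of all entries was 0.09 after quantile normalization, against -0.05 with TMM scaling and -0.26 as deposited. Over all entries, 257 were lower and 51 higher as deposited, 165 and 95 with TMM scaling, and 95 and 138 after quantile normalization.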

How the data were processed

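Small RNA of plasma exosomes was sequenced in 6 libraries, 3 of large fish and 3 of small fish. Per the methods, reads were trimmed, Bowtie was used to take out ribosomal, transfer and other small RNA and repeats, the rest was matched to the grass carp genome and to miRBase precursors, and reads that shared a unique molecular identifier were collapsed to 1. The authors deposited the values as CPM, per 1000000 known and newly predicted miRNA counts of a library. In every library 100% of the values were whole multiples of 1 count, within a tolerance of 0.02, so the counts were recovered.

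Entries were tested with limma 3.58.1 (trend) in R 4.3.3 on log2(CPM + 1), with a filter of 1 CPM in at least 3 libraries and thresholds of adjusted p 0.05 and fold 1.5. The 3p/5p ratio was fitted likewise over 125 combinations of family and letter, each arm represented by its most abundant entry of any species. By exact permutation 10 pairs were compared, using the zebrafish entry of a letter where there is one. Recovered counts were tested with edgeR 4.0.16 and DESeq2 1.42.0 as alternatives, beside other pseudocounts, filters, scalings, a replicate block and each library left out. The procedure was tested on simulated data.

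Named entries were the most abundant of each family, letter and arm (ties: zebrafish, carp, then alphabetical), every zebrafish and carp entry, the relatives, and the 5 families most like each of miR-10 and miR-196. The members, lists and tests were chosen with earlier results of these data known. Pools were not labelled by batch, and p-values measure the spread between pools of unequal size. Other tissues, proteins, newly predicted miRNAs and target genes were not analysed here.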

Additional observations from a re-analysis of the deposited data

How the results depend on the processing

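With each library left out in turn, the number of miR-10 entries lower in large fish ranged from 0 to 36 and that of miR-196 entries from 0 to 21, against 31 and 22 with all 6. It was 18 and 20 without S2, 25 and 13 without S1, and 36 and 21 without L3. Over the whole table, 151 entries were lower and 26 higher of 1766 without S2. Without S1 these were 125 and 28 of 1753, and without L3 307 and 55 of 1794. edgeR's quasi-likelihood test on the recovered counts gave 25 and 21 entries (148 lower and 95 higher over the whole table). Its older form, added after the data were seen, gave 5 and 0 (22 lower and 24 higher over the whole table). In the older form 31 and 21 were at an unadjusted p under 0.05, beside 553 of all 1807 entries. The median log2 fold changes of miR-10 and miR-196 entries were -0.98 and -1.52 in the newer form and -0.98 and -1.53 in the older. Quantile normalization gave 7 and 19. The remaining settings, the removal of the fold threshold among them, gave 25 to 31 miR-10 and 21 or 22 miR-196 entries. Over the whole table they gave 165 to 258 lower and 24 to 184 higher entries. No setting called an entry higher. With the replicate number as a block, 26 and 22 entries passed, and dre-miR-10d-5p did not (adjusted p = 0.0540 by limma). Same-numbered libraries had correlations of -0.04, -0.07 and -0.03 in their deviations from the group means, and no library correlated best with its own number. These values gave no sign that the numbers pair the pools.

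Values that turned sign belonged to entries and pairs that did not pass. dre-miR-10b-2-3p was 0.061 after quantile normalization, 0.029 with edgeR's quasi-likelihood test and 0.029 with DESeq2, 0.024 with the older form and 0.023 with the exact test, and lay between -0.99 and 0.34 with a library left out. dre-miR-10d-3p was -0.0024 with a pseudocount of 10, -0.26 without L1, -0.80 without L3 and -1.07 without S3, and 1.13 at the other end of that range. miR-99a was 0.045 with TMM scaling, 0.34 after quantile normalization, 0.047 with edgeR's quasi-likelihood test, its older form and the exact test, and 0.089 with DESeq2, where miR-100 was 0.053, 0.32, 0.055 and 0.097. With a pseudocount of 10 the 3p/5p difference was 1.24 for miR-10b (adjusted p = 0.0260 by limma), 1.13 for the entries named 10c (0.0357) and 0.72 for miR-196a (0.160). The pair difference to miR-10a ranged from -0.18 to 0.010 for miR-10c and from -0.034 to 0.17 for miR-10d with a library left out, the turned value in both being the one without L3. The cause was not tested. dre-miR-10d-3p rested on 31, 0 and 89 counts in large fish, against 32, 179 and 0 in small fish.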
